A study of Mus musculus with 9 samples.

Results

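Maternal-effect genes are transcribed in the growing oocyte, and the RNAs and proteins they leave there are needed by the embryo after fertilization. The 10 genes followed here were Nlrp14, Nlrp5, Nlrp4f, Padi6, Ooep, Tle6, Khdc1b, Zar1, Bcl2l10 and Npm2. Each was read from the probe sets (groups of short probes for a transcript) that the array annotation assigns to that gene alone, and where a gene had more than 1, the probe set with the highest mean over all arrays was used. In this way 9 of the 10 genes were measured, with 10 probe sets of the 45101 on the array and 9 of the 18194 genes with a probe set of their own. Npm2, which encodes a nucleoplasmin of the oocyte nucleus, is not analysed here, because the annotation used here lists no probe set for it.

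In the oocyte of the mouse, the products of Nlrp5, Ooep and Tle6, with that of Khdc3, form the subcortical maternal complex, which lies under the egg membrane and is built into the cytoplasmic lattices that also need Padi6. Zar1 encodes an RNA-binding protein that keeps stored maternal RNAs, and Nlrp14 and Nlrp4f belong with Nlrp5 to the NLRP family, several members of which are expressed mainly in oocytes. These genes are switched on as the oocyte of a forming follicle begins to grow, under transcription factors of the germ line such as NOBOX, LHX8, FIGLA and SOHLH1.

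The samples were XX ovarian grafts taken back from the host at 5 times (day 4, day 7, day 10, day 15 and day 20 post-transplantation) and ungrafted XX ovaries of stage E13.0 (day 0), the stage at which grafting was done. The pregnant females had been injected with busulfan, an alkylating drug that the study used to remove germ cells and their transcripts, so that all samples, day 0 included, came from drug-exposed embryos. The labels name the ICR strain, whereas the methods name C57BL/6 and ICR females, and the hosts were intact XY nude mice (BALB/c, nu/nu) of 8 weeks of age that carried the ovaries under the kidney capsule. Days 0, 10 and 20 had 2 arrays each and days 4, 7 and 15 had 1 array each. Each graft array held a pool of approximately 10 grafts, and the methods give no such number for the ungrafted ovaries of day 0. No source used here names the litters and hosts behind the pools, and p-values therefore measure only the spread among pooled samples, which may be technical in part.

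All values are log2 intensities, on which a difference of 1 is a doubling of the signal, and levels of different probe sets are not compared with each other. Array medians lay between 6.49 and 6.63. Values under 4.82, the 25th percentile of all values, were taken as close to background. The ovarian marker Foxl2 was between 11.44 and 12.98 on all arrays, and the spermatid genes Tnp1 and Acrv1 were under 4.82 on all arrays. A further spermatid gene, Prm1, was between 6.63 and 7.20 on all arrays with the probe set used and under 4.82 on all arrays with its other 2 probe sets. Replicate 1 of day 20 stood apart from the other arrays: the median of 8 genes of the kidney proximal tubule was 5.86 above the day 0 mean in it, against -0.16 to 0.53 in the other arrays. Single genes of the 8 departed from this median, such as Miox. It was at 5.43 and 5.58 on day 0, 7.96 and 10.19 on day 10, 10.00 on day 15, and 13.71 and 9.86 on day 20. A second probe set of Kap was at 4.07 and 3.97 on day 0, 3.92 and 8.76 on day 10, and 7.05 on day 15. It was at 14.07 and 3.89 on day 20. The Kap probe set used differed less, with 6.95 on both arrays of day 0, 6.76 and 7.60 on day 10, and 7.30 on day 15. The contrast of the signals from the 3' and 5' ends of Gapdh, a sign of RNA degradation, was also highest in replicate 1 of day 20 (0.44, against -0.17 to 0.15 in the other arrays). The same contrast of Actb was 0.97 in it, within the range of the other arrays (0.58 to 1.02).

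Germ cell transcripts were present in spite of the busulfan treatment. Ddx4, an RNA helicase of germ cells, was at 7.37 and 9.61 on day 0, 4.76 on day 4, 5.84 on day 7, 6.76 and 8.74 on day 10, 8.80 on day 15, and 8.21 and 8.77 on day 20. Dazl, a germ cell RNA-binding protein gene, was at 9.15 and 11.12 on day 0, 6.22 on day 4, 7.48 on day 7, 7.34 and 9.22 on day 10, 9.34 on day 15, and 9.47 and 9.96 on day 20. Both were lowest on day 4 and differed by more between the day 0 arrays than any maternal-effect gene did. In such bulk samples, fewer cells of a type and less RNA per cell cannot be told apart, and this holds for every value below.

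The sequences before the transcription start are shown for 5 of the genes, because the profiles of these genes over the arrays were alike. They are the 250 bases before the start given by RefSeq (build GRCm38.p6), 5′ to 3′ on the strand of the gene, at chr7:23385639-23385888 (plus strand) for Nlrp5, chr13:65205717-65205966 (minus strand) for Nlrp4f, chr4:140742644-140742893 (minus strand) for Padi6, chr9:78378589-78378838 (minus strand) for Ooep and chr1:21383306-21383555 (plus strand) for Khdc1b. Capitals mark matches, on either strand, to CANNTG (the E-box of basic helix-loop-helix factors such as FIGLA), TAATTG (the core bound by NOBOX) and TGATTG (the core bound by LHX8); no match to TATAAA (the TATA box) lay in these windows.
Nlrp5: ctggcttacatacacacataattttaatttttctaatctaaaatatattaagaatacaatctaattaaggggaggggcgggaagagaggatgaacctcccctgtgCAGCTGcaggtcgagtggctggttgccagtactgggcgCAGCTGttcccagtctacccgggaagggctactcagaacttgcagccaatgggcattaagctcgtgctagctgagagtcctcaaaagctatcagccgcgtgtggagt
Nlrp4f: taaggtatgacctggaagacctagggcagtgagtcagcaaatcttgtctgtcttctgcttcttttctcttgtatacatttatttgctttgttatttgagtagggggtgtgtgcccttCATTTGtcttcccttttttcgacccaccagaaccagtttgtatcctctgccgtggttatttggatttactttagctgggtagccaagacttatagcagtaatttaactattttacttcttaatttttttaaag
Padi6: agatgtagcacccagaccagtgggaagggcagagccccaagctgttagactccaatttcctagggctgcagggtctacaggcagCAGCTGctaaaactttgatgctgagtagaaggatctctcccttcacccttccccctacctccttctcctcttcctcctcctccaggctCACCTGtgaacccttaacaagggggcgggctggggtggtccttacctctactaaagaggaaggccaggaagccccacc
Ooep: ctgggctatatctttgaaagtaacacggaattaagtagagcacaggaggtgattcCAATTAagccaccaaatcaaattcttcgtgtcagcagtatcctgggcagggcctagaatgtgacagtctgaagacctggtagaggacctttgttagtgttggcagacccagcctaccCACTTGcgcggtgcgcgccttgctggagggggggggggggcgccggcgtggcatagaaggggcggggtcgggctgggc
Khdc1b: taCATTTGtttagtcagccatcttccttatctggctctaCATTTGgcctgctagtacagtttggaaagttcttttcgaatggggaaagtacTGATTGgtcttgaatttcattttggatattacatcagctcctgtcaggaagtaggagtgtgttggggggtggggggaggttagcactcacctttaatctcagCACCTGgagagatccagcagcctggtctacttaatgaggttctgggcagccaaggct
Promoters were matched by symbol for 7 of the 10 genes, the other 2 of them being Tle6 and Zar1. An E-box was found in the first listed promoter of 7 of 7 genes, but 66.2% of the 32851 promoters in the table hold one. The NOBOX core was found for 1 of 7 genes, Ooep, as CAATTA from 195 to 190 bases before the start, against 7.17% of all promoters. The LHX8 core was found for 2 of 7 genes, Tle6 and Khdc1b, in Khdc1b with 1 match from 159 to 154 bases before the start, against 12.7% of all promoters. TATAAA was found for 0 of 7 first starts, against 12.4% of all promoters. The shares cover all listed starts of all genes, whereas the 7 genes were counted at their first start only. The second listed start of Nlrp5, not shown, held 2 matches to TATAAA. A match is a run of letters and not a bound site.

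Most of the maternal-effect genes were at similar levels on days 0 and 4, some had intermediate values on day 7, and all 9 had higher values on days 10, 15 and 20 than on day 0. Their median difference from the day 0 mean was -0.23 on day 4, 1.08 on day 7, 5.05 on day 10, 6.26 on day 15 and 6.21 on day 20, whereas the median over all probe sets was between -0.11 and -0.06 on these days. No member was called on day 4 or 7, 6 of 9 were called higher on days 10 and 15, and 8 of 9 on day 20. A call was an adjusted p under 0.05 (limma, Benjamini-Hochberg) together with a change of more than 2-fold. Of all probe sets, 0.774% were called higher on day 4, 1.28% on day 7, 2.87% on day 10, 2% on day 15 and 4.52% on day 20. No member was called lower on any day, against 0.155% of all probe sets on day 4, 0.386% on day 7, 1.33% on day 10, 0.8% on day 15 and 3.1% on day 20.

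**Figure D1:**
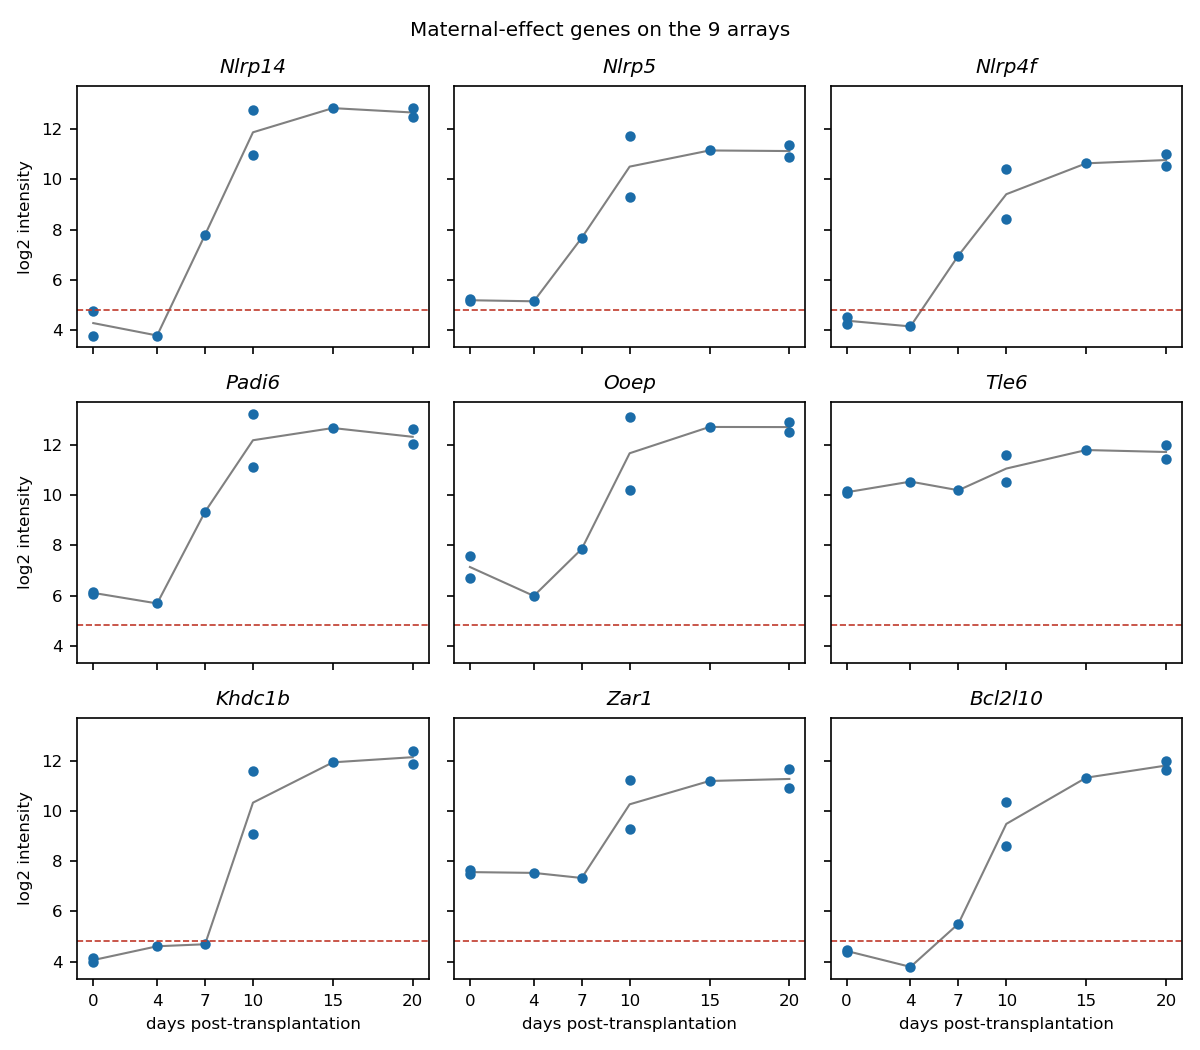
Log2 intensity (vertical axis) of the 9 measured maternal-effect genes against days post-transplantation (horizontal axis). Points are arrays, the line joins the day means and the dashed red line is the 25th percentile of all values (4.82). Every gene is higher on both arrays of days 10 and 20 than on both arrays of day 0, by the least in Tle6.

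Among the genes of the subcortical maternal complex, Nlrp5 (also called Mater), which mouse embryos need to pass the early cleavages, was at 5.23 and 5.14 on day 0, 5.14 on day 4, 7.67 on day 7, 9.29 and 11.71 on day 10, 11.15 on day 15, and 10.90 and 11.35 on day 20. Its level on day 7 lay between those of the early and the late arrays, with no overlap. On day 20 it was 61.2-fold higher than on day 0 (log2 difference 5.93, standard error 0.74, adjusted p = 0.0111) and 39.8-fold higher on day 10 (5.31, standard error 0.74, adjusted p = 0.0221). Ooep, which encodes the KH-domain protein FLOPED, was at 6.70 and 7.57 on day 0, 5.99 on day 4, 7.86 on day 7, 10.21 and 13.12 on day 10, 12.71 on day 15, and 12.51 and 12.89 on day 20. It had the widest gap between the day 10 arrays of the 9 genes, and its day 7 value was close to the higher day 0 array. Ooep was 47.4-fold higher on day 20 than on day 0 (5.57, standard error 0.92, adjusted p = 0.0228), and its difference on day 10 (4.53, standard error 0.92, adjusted p = 0.0578) did not pass.

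Tle6, a member of the Groucho family of corepressors that belongs to the complex in the oocyte, had the smallest range of the 9 genes. It was at 10.15 and 10.07 on day 0, 10.53 on day 4, 10.19 on day 7, 10.51 and 11.60 on day 10, 11.79 on day 15, and 11.45 and 11.98 on day 20. The arrays of days 10 and 20 did not overlap with those of day 0, but replicate 1 of day 10 was level with day 4. The difference from day 0 was 1.60 on day 20 (95% interval 0.64 to 2.56, adjusted p = 0.0601) and 0.94 on day 10 (adjusted p = 0.247), and neither passed. Tle6 on day 20 was 3.04-fold above day 0. It passed the threshold with an intensity trend (adjusted p = 0.0444) and with only probe sets above the median (0.0367). Genes in place of probe sets gave 0.0398, which also passed. It did not pass with array quality weights (0.177), quantile normalization (0.0561) or median centring (0.0516).

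Padi6, whose product is needed for the cytoplasmic lattices of the oocyte, was at 6.08 and 6.13 on day 0, 5.69 on day 4, 9.33 on day 7, 11.12 and 13.24 on day 10, 12.67 on day 15, and 12.02 and 12.62 on day 20. It had its highest value in replicate 2 of day 10, above both arrays of day 20. Padi6 was 67.3-fold higher on day 10 than on day 0 (6.07, standard error 0.67, adjusted p = 0.0113) and 74.0-fold higher on day 20 (6.21, standard error 0.67, adjusted p = 0.00726). Nlrp4f, an NLRP protein that associates with the complex in the mouse, was at 4.51 and 4.24 on day 0, 4.15 on day 4, 6.97 on day 7, 8.41 and 10.40 on day 10, 10.63 on day 15, and 10.53 and 10.995 on day 20. Its day 0 and day 4 values were close to background, so that the size of its change is uncertain. The fitted difference was 5.03 on day 10 (standard error 0.63, adjusted p = 0.0157) and 6.39 on day 20 (standard error 0.63, adjusted p = 0.00574), and with values under 4.82 raised to 4.82 the differences were 4.59 and 5.95.

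Nlrp14, an NLRP gene of the germ line, was at 3.78 and 4.78 on day 0, 3.78 on day 4, 7.79 on day 7, 10.98 and 12.75 on day 10, 12.83 on day 15, and 12.47 and 12.84 on day 20. The 3 values of days 0 and 4 were all close to background, and the day 7 value was clear of them. The fitted difference from day 0 was 7.59 on day 10 (standard error 0.63, adjusted p = 0.00589) and 8.38 on day 20 (standard error 0.63, adjusted p = 0.00304), and its size is uncertain. With values under 4.82 raised to that level (a floor), the differences were 7.05 and 7.84.

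Khdc1b, a KH-domain gene expressed in oocytes, was at 4.14 and 3.98 on day 0, 4.61 on day 4, 4.69 on day 7, 9.06 and 11.59 on day 10, 11.93 on day 15, and 11.88 and 12.39 on day 20. It was the only member still close to background on day 7, and every later array was far above it. The difference from day 0 was 6.26 on day 10 (standard error 0.78, adjusted p = 0.0157) and 8.07 on day 20 (standard error 0.78, adjusted p = 0.00553). These sizes are uncertain, and with the floor they were 5.51 (adjusted p = 0.116) and 7.32 (adjusted p = 0.0621), neither of which passed. This probe set carries a suffix (_s_at) that marks probes shared among transcripts, but the other probe set of Khdc1b, without it, gave a similar course, with 4.02 and 4.49 on day 0, 4.35 on day 7, and 11.19 and 11.88 on day 20 (day 20 difference 7.27, adjusted p = 0.00768).

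Zar1, whose absence from the mouse egg halts the embryo very early, was at 7.63 and 7.49 on day 0, 7.53 on day 4, 7.33 on day 7, 9.28 and 11.24 on day 10, 11.19 on day 15, and 10.89 and 11.65 on day 20. Its 4 values up to day 7 lay within a narrow range. It was 13.04-fold higher on day 20 than on day 0 (3.71, standard error 0.64, adjusted p = 0.0256), and its difference on day 10 (2.70, standard error 0.64, adjusted p = 0.0845) did not pass. Bcl2l10, a member of the BCL2 family expressed in oocytes, was at 4.38 and 4.47 on day 0, 3.79 on day 4, 5.51 on day 7, 8.60 and 10.37 on day 10, 11.32 on day 15, and 11.61 and 11.99 on day 20. It was the member with the largest difference between days 20 and 10, and both day 20 arrays were above all others. The fitted difference from day 0 was 5.05 on day 10 (standard error 0.56, adjusted p = 0.0113) and 7.38 on day 20 (standard error 0.56, adjusted p = 0.00312), from day 0 values close to background, and with the floor it was 4.66 and 6.98.

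On day 15, with its lone array, the 6 genes called on day 10 were called again. Their differences from day 0 were 8.55 for Nlrp14 (adjusted p = 0.0108), 7.87 for Khdc1b (0.0208), 6.89 for Bcl2l10 (0.0125), 6.56 for Padi6 (0.0219), 6.26 for Nlrp4f (0.0213) and 5.96 for Nlrp5 (0.0365). Ooep (5.57, adjusted p = 0.0719), Zar1 (3.62, 0.0841) and Tle6 (1.68, 0.151) did not pass. With the floor, the differences of the 4 genes close to background on day 0 were 8.01 for Nlrp14, 7.11 for Khdc1b, 6.501 for Bcl2l10 and 5.82 for Nlrp4f. The spread of this array was taken from the days with duplicates.

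The calls rest on few arrays, and with the floor 0 genes were called on days 10 and 15 and 2 (Nlrp14 and Bcl2l10) on day 20. Over all probe sets the floor also lowered the share called higher, to 0.654% on day 10, 0.399% on day 15 and 1.34% on day 20, and the differences of Nlrp5, Padi6, Ooep, Zar1 and Tle6, which had no value under it, stayed the same. On day 20, Nlrp14 and Bcl2l10 passed under every alternative tried, with adjusted p up to 0.0369 and 0.043. Fewer genes were called on day 20 when either day 0 array or either day 20 array was left out. Without replicate 1 of day 20, the array with the high kidney markers, the day 20 differences of all 9 genes were larger. They ran from 1.87 in Tle6 to 8.56 in Nlrp14. On days 10 and 15, fewer genes were also called without either day 0 array. Such fits hold fewer arrays, and their shares of all probe sets called are not given here.

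**Figure D2:**
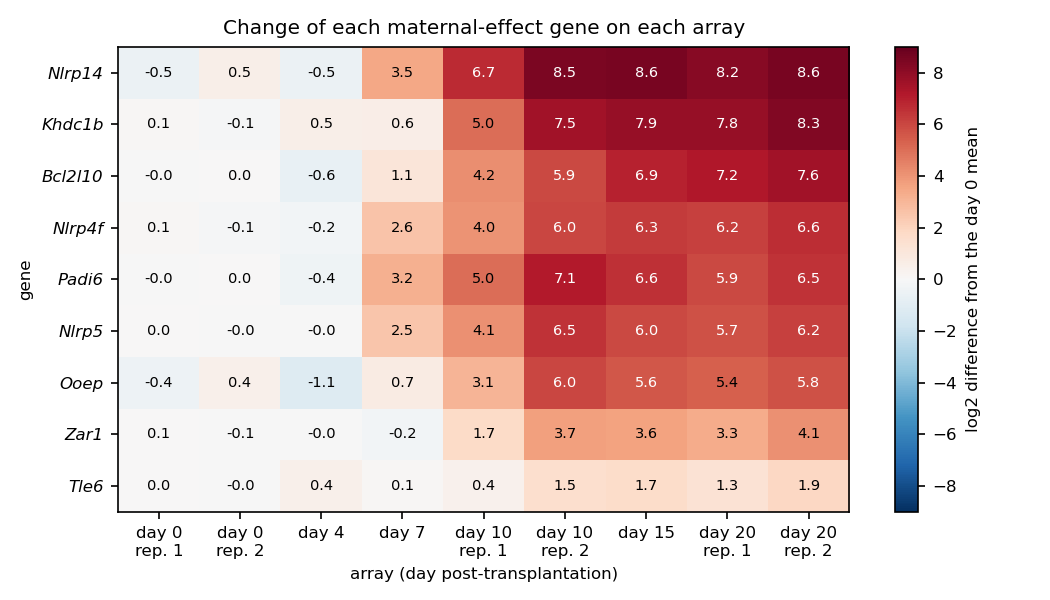
Log2 difference from the day 0 mean (colour and printed number) for each maternal-effect gene (rows, ordered by the day 20 difference) on each array (columns, by day post-transplantation). Day 7 shows values above 2 in Nlrp14, Nlrp4f, Padi6 and Nlrp5, and replicate 1 of day 10 is paler than replicate 2 in every row.

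The genes were not equally advanced on day 7. Of the log2 difference between days 20 and 0, Padi6 had reached 52.0% on day 7, Nlrp14 41.9%, Nlrp5 41.8% and Nlrp4f 40.5%. Bcl2l10 had reached 14.7%, Ooep 12.9%, Khdc1b 7.80%, Tle6 4.99% and Zar1 -6.33%, that is, slightly below day 0. The differences of day 7 from day 0 were 3.51 in Nlrp14 (95% interval 1.61 to 5.42, adjusted p = 0.116), 3.23 in Padi6 (1.20 to 5.25, adjusted p = 0.165), 2.59 in Nlrp4f (0.69 to 4.49, adjusted p = 0.225) and 2.48 in Nlrp5 (0.22 to 4.74, adjusted p = 0.327). No gene passed on the lone array of day 7, where 4 of 9 (these 4) had an unadjusted p under 0.05 with a higher value, against 6.8% of all probe sets. An adjusted p under 0.3 was also tried. The paper used this q value, from a test it does not name, for the gene lists behind its gene function terms. At this level 3 passed (Nlrp14, Padi6 and Nlrp4f), against 4.18% of all probe sets. These shares depend on the day 0 level, which was close to background for Nlrp14, Nlrp4f, Khdc1b and Bcl2l10, and whether the genes differ from each other in their timing was not tested.

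On day 4, the differences from day 0 ran from -1.15 in Ooep (adjusted p = 0.898) to 0.55 in Khdc1b (adjusted p = 0.969). Only Khdc1b and Tle6 were above the day 0 mean, and the intervals of all 9 genes held 0. None of 9 was higher at an unadjusted p under 0.05, against 5.65% of all probe sets.

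**Figure D3:**
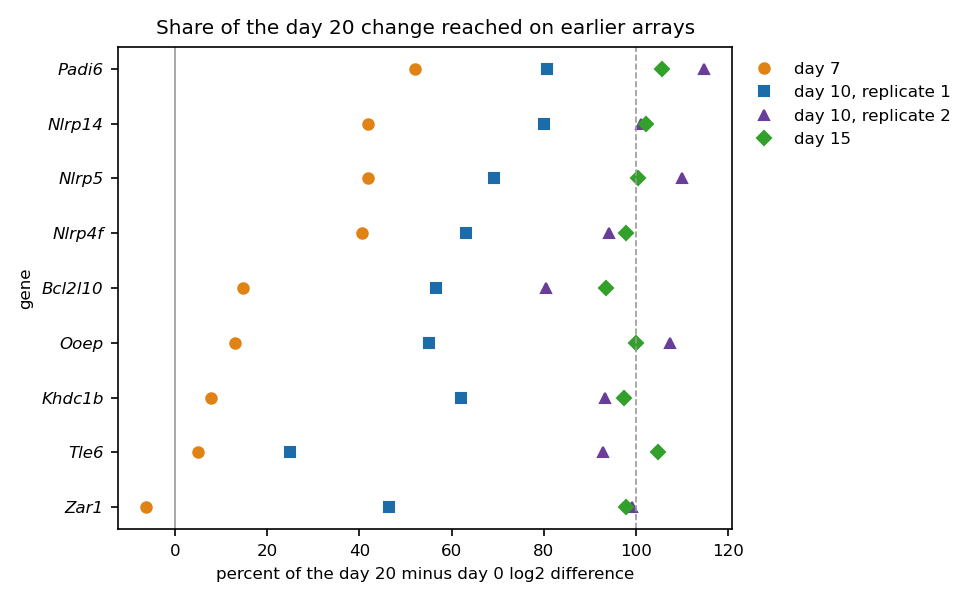
Percent of the day 20 minus day 0 log2 difference (horizontal axis) that each gene (vertical axis) had reached on day 7, on each array of day 10 and on day 15. Padi6, Nlrp14, Nlrp5 and Nlrp4f lie between 40.5% and 52.0% on day 7, whereas the other 5 genes lie under 15%, and replicate 2 of day 10 lies right of replicate 1 for every gene.

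Between successive graft days, no member passed the test, and neither did any other probe set (0 of 45101 in each step, 0%). By the median over the 9 genes, the largest step was that between days 10 and 7 (2.93), with a difference of 5.63 in Khdc1b (95% interval 3.27 to 7.997, adjusted p = 0.768), 4.08 in Nlrp14 (2.17 to 5.98, adjusted p = 0.838), 3.97 in Bcl2l10 (2.28 to 5.66, adjusted p = 0.768) and 0.86 in Tle6 (-0.31 to 2.04). At an unadjusted p under 0.05, 8 of 9 genes were higher on day 10 than on day 7 (1.35% of all probe sets were), 3 of 9 on day 7 than on day 4 (0.931%), 1 of 9 on day 15 than on day 10 (1.33%) and 0 of 9 on day 20 than on day 15 (1.53%). Between days 7 and 4, Nlrp14 differed by 4.01 (1.81 to 6.20), Padi6 by 3.65 (1.31 to 5.98) and Nlrp4f by 2.82 (0.63 to 5.01), and in Padi6 and Nlrp4f this earlier step was the larger one. From day 15 on, the levels were close together, with day 20 minus day 15 between -0.35 in Padi6 and 0.48 in Bcl2l10. This was less than the pooled SD of the duplicates for each gene (0.50 to 1.25), to which day 10 contributed most. The interval for Bcl2l10 nevertheless ran from -1.20 to 2.17, so that moderate changes at this time would not have been detected.

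The order of the day means put day 4 lowest in 6 genes, day 0 lowest in Tle6 and Khdc1b, and day 7 lowest in Zar1. Day 15 was highest in Nlrp14, Nlrp5, Padi6, Ooep and Tle6, and day 20 in Nlrp4f, Khdc1b, Zar1 and Bcl2l10. For day 4 against day 0 and day 20 against day 15, the 95% intervals of the fit held 0 in every gene. These intervals use a spread pooled over the duplicates, which was widest on day 10 in every gene. In Padi6, the SD was 0.04 on day 0, 1.49 on day 10 and 0.42 on day 20. Some differences exceeded the spread of the day 0 arrays alone, such as 0.42 in Tle6 and -0.63 in Bcl2l10 on day 4 (day 0 SD 0.06 and 0.07). Day 20 was higher than day 10 by 2.32 in Bcl2l10 (95% interval 0.94 to 3.70, adjusted p = 0.735), 1.81 in Khdc1b (-0.12 to 3.74, adjusted p = 0.977) and 0.14 in Padi6 (adjusted p = 0.992), and no member was called (0.00222% of all probe sets were). At an unadjusted p under 0.05, 1 of 9 (Bcl2l10) was higher, against 3.15% of all probe sets.

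The day 10 arrays differed from each other in all 9 genes in the same direction. Replicate 2 was higher by 1.09 in Tle6 to 2.91 in Ooep, with a median of 1.98, whereas over all probe sets the median difference was -0.04 with an SD of 0.34. In replicate 1 the genes had reached 24.97% (Tle6) to 80.8% (Padi6) of the day 20 difference, and in replicate 2 they had reached 80.5% (Bcl2l10) to 115% (Padi6). The 12 genes of the zona pellucida and oocyte growth were also all higher in replicate 2 (median 1.85), as were 9 of the 14 fetal germ cell and meiosis genes (median 0.77) and all 8 kidney genes (median 0.82), while the granulosa genes were slightly lower (median -0.24, 3 of 10 higher). The contrast of the 3' and 5' signals was 0.12 and -0.17 for Gapdh and 1.02 and 0.60 for Actb in replicates 1 and 2. The part of these differences in the result was not tested.

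On day 20 all 9 genes were higher in replicate 2 by 0.36 to 0.76 (median 0.46), and the kidney genes were lower in it by a median of 5.21 (0 of 8 higher). On day 0 the arrays differed little in 7 of the 9 genes, and Nlrp14 and Ooep were higher in replicate 2 by 0.996 and 0.87. The fetal germ cell genes were higher in that array in 13 of 14 cases, with a median of 1.69, and the macrophage genes by a median of 0.61. All 9 maternal-effect genes had both arrays of day 10 above both arrays of day 0, as had 21.3% of all probe sets, and all 9 had both arrays of day 20 above them, as had 18.9%.

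The other genes of the same pathways moved to different degrees. Of 7 measured genes of the subcortical maternal complex and its partners, 4 were called higher on day 10 and 6 on day 20, all but Tle6, and 5 of the 7 are among the genes above. Khdc3, the KH-domain partner in the complex (also called Filia), was at 6.20 and 5.81 on day 0, 9.16 and 10.66 on day 10, and 8.997 and 9.996 on day 20 (day 20 difference 3.49, adjusted p = 0.0217). Zbed3, which has been found with the complex in the mouse, differed by 1.37 (adjusted p = 0.0325), with a probe set that may detect related transcripts. Another of its probe sets changed little, at 5.24 and 5.04 on day 0 and 5.04 and 4.84 on day 20. The rest were higher on day 20. The median of the list was 5.57 on day 20, which is the value of Ooep, and Khdc3 and Zbed3 were both below it.

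Of 8 other NLRP and KHDC1 genes, 1 was called higher on day 10 and 6 on day 20, with a median of 2.97. Nlrp4a, which was at 3.44 and 3.52 on day 0, 6.59 and 8.56 on day 10, and 10.08 and 10.45 on day 20, had the largest difference (6.79, adjusted p = 0.00455). Nlrp4b (6.17, adjusted p = 0.0137), Nlrp4e (3.28, adjusted p = 0.00384) and Nlrp9a (3.06, adjusted p = 0.0136) were also called on day 20. All 4 were close to background on day 0, so that these sizes are uncertain (5.45, 4.70, 1.72 and 2.84 with the floor, which was applied to the genes of the lists after their values were seen), and NLRP genes resemble each other in sequence, so that signal may be shared among them. Nlrp4e was at 3.70 and 4.07 on day 10, still close to background, and at 6.20 and 6.87 on day 20.

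Of 9 genes for the storage and decay of maternal RNA, 1 was called higher on day 10 and 2 on day 20, with a list median of 0.79. They were Btg4, an adaptor of the deadenylase that clears maternal RNA (day 20 difference 5.43, adjusted p = 0.00651), and Patl2, an RNA-binding protein gene of the oocyte (2.98, adjusted p = 0.0186). Of 11 maternal chromatin genes, 1 was called higher on both days and 1 lower on day 20, with a list median of -0.05. On day 20, 5 of the 11 differences were above 0. Dppa3 (2.36, from 7.90 and 10.08 on day 0), Dnmt3l (1.27) and Dnmt1 (1.17) were among them but were not called. H1f8, the oocyte linker histone, was higher by 4.40 (adjusted p = 0.00907), and Smarca4, the ATPase of a chromatin remodelling complex used in many cell types, fell by 1.07 (adjusted p = 0.0365). The other probe set of Smarca4 did not show this fall, with day 0 arrays (9.425 and 6.94) on either side of those of day 20 (8.53 and 8.21).

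Of 12 genes of the zona pellucida and oocyte growth, 8 were called higher on day 10 and 8 on day 20, with a list median of 5.38. Those with the largest fitted day 20 differences were Oosp1, an oocyte-secreted protein gene (7.69, adjusted p = 0.00313), the zona pellucida genes Zp3 (7.20, adjusted p = 0.00423) and Zp2 (6.57, adjusted p = 0.00487), and Bmp15, an oocyte growth factor (6.30, adjusted p = 0.00645). Oosp1 and Bmp15, and Zp3 on 1 array, were close to background on day 0, and this order depends on it, since with the floor the differences were 7.12 for Zp3, 6.98 for Oosp1, 6.57 for Zp2, 5.59 for Gdf9 and 5.37 for Bmp15. The other probe sets of Bmp15 changed less. They were at 4.09 and 4.65, and at 4.34 and 4.32, on day 0. On day 20 they were at 8.13 and 8.46, and at 5.82 and 6.84. None of the 12 genes was called lower, but the day 20 difference was -1.11 in Sohlh1, -1.24 in Sohlh2 and only 0.31 in Kit. Of the 14 genes of fetal germ cells and meiosis, none was called higher on day 10 or 20, their median difference from day 0 was -1.39 on day 4, -1.50 on day 7, -0.28 on day 10, -0.45 on day 15 and -0.53 on day 20, and Rec8, a meiotic cohesin, fell by 3.74 on day 20 (adjusted p = 0.00224). Single genes of this list went both ways on day 20, from -3.74 in Rec8 to 2.09 in Dppa5a (adjusted p = 0.177), and the day 0 arrays differed by a median of 1.69 over the list. The 10 macrophage genes were above day 0 on all graft days (median 2.85 on day 20, 9 of 10 called higher), and of 9 genes of spermatogonia and spermatocytes 0 were called on any day. The latter count says little, since on day 20 only 4.52% of all probe sets were called higher and 3.1% lower. Single genes of that list went both ways on day 20, such as Sall4 (1.08) and Hormad1 (-1.89).

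**Figure D4:**
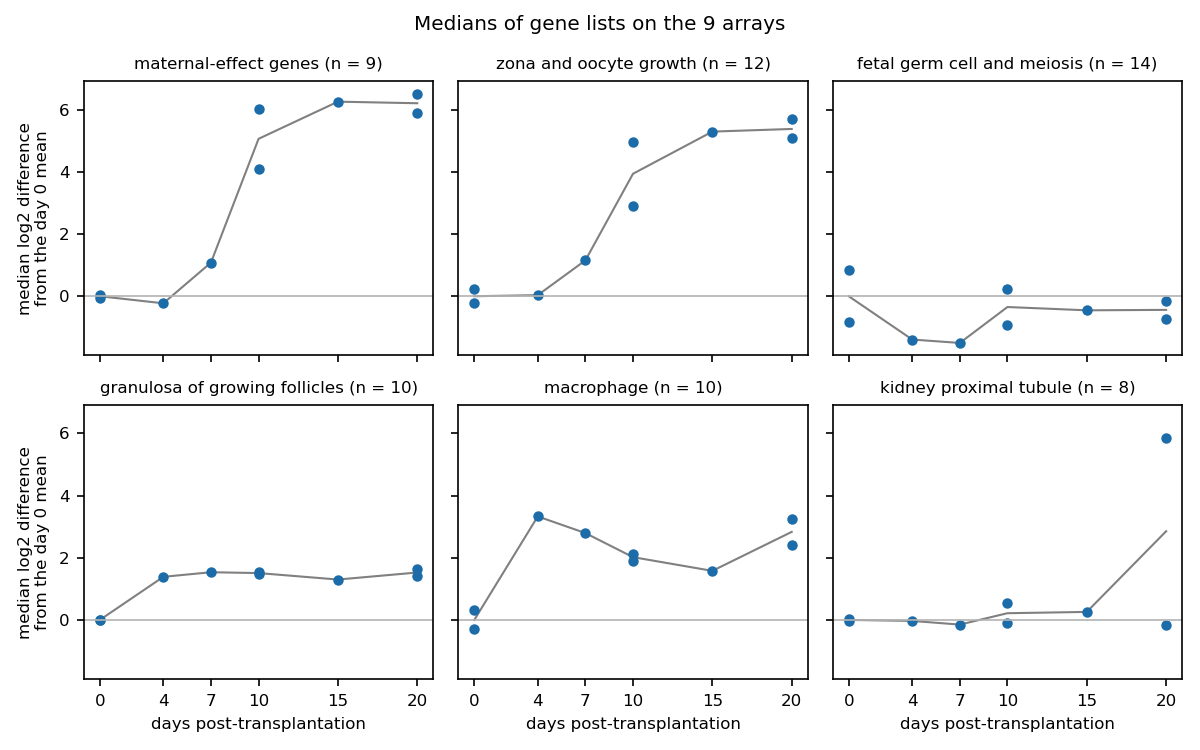
Median log2 difference from the day 0 mean (vertical axis) over the genes of 6 lists against days post-transplantation (horizontal axis); points are arrays and lines join the day means. The medians of the maternal-effect and the zona and oocyte growth genes stay near 0 until day 4 and exceed 2.9 on all arrays from day 10 on. The fetal germ cell median lies between -0.94 and 0.25 on those arrays, and the kidney median is high in replicate 1 of day 20 alone. Single kidney genes, such as Miox, were also higher on other arrays.

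Over the 9 arrays, the profiles of the 9 genes resembled each other. Pearson's r between pairs of genes ran from 0.84 (Tle6 and Padi6) to 0.99 (Nlrp4f and Nlrp5), and r with their mean profile from 0.91 (Tle6) to 0.99 (Nlrp4f). The 2315 genes that varied by more than 2 on the log2 scale were ranked by their r with this mean profile. The members other than Tle6, which varied by less, were among them. Each member is itself part of the mean profile, which raises its r. With members and predicted, RIKEN or other clone names left out, the top 5 were Fbxw18 (r = 0.996), Arhgap20os (0.995), Gdf9 (0.993), Omt2b (0.993) and Zp1 (0.992). Gdf9 encodes a growth factor and Zp1 a zona pellucida protein, both made by the oocyte. Fbxw18, an F-box gene, was at 3.89 and 3.96 on day 0, 5.41 on day 7, 8.13 and 10.14 on day 10, and 10.80 and 11.24 on day 20. In all, 97 of the ranked genes, members and all names included, had an r above 0.95. Such values describe 9 arrays that share a time course and the gap between the day 10 arrays.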

How the data were processed

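RNA of XX ovaries and ovarian grafts was measured on 9 Affymetrix whole-genome mouse arrays. The authors deposited log2 intensities from the robust multiarray algorithm (RMA, version not given in the sources used here), a procedure of background correction, quantile normalization over arrays and 1 summary value per probe set. Further analysis by the authors used R 2.14.2 and dChip. One of 2 labelling kits was used, and which array had which is not given. There is no detection call per value, and the number of arrays limits precision.

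Samples were grouped by day from the labels. All 45101 probe sets, 64 control probe sets included, entered a linear model with one mean per day (lmFit, then eBayes, of limma 3.58.1 under R 4.3.3, with 3 residual and 2.69 prior degrees of freedom, prior variance 0.0423). Adjustment was by Benjamini-Hochberg over the whole array, and a call needed an adjusted p under 0.05 and more than 2-fold change. Days with a lone array (4, 7 and 15) were taken to vary as the duplicates did. The annotation gave 34958 probe sets a single gene, 932 several and 9211 none. The test was checked on simulated data, and Python 3.11.15 was used for tables (pandas 2.3.3, numpy 2.4.6), promoter searches and plots (matplotlib 3.10.9).

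The genes named were the members, up to 4 genes of each oocyte list with the largest called day 20 change, the 5 genes with the most similar profile, and marker genes of other cell types. The members and lists were chosen with earlier results of these data known. The alternatives tried were an intensity trend, array quality weights, quantile normalization, median centring, a filter and a floor on low values, a replicate block, a fit to the arrays of the compared days alone, a looser threshold, genes in place of probe sets, another probe set, and each duplicate array left out in turn.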

Additional observations from a re-analysis of the deposited data

How the results depend on the processing

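All 417 alternative fold changes of the 9 genes on days 10, 15 and 20 against day 0 were positive. The number of genes called higher varied more. With a floor at the 25th percentile of all values (4.82), 0 genes were called on day 10, 0 on day 15 and 2 on day 20, with 0.654%, 0.399% and 1.34% of all probe sets called higher, and the cause was not tested. At an adjusted p under 0.3, 3 were called on day 7. With 1 array left out in turn, the fit held fewer arrays, and the number of genes called on days 10, 15 and 20 varied. It was lowest without a day 0 array. Shares of all probe sets called in these fits are not given here, and the change is not read as particular to these genes. On day 4, on day 7 and between later days, 0 were called whichever array was left out. A replicate block gave 7 genes on day 10, 8 on day 20 and 0 between days 20 and 10. The replicate numbers did not pair the samples (r of deviations -0.16, 0.15 and -0.13), and the block is given only for completeness. Array quality weights ended the day 20 calls of Ooep and Zar1, and the remaining settings kept each count within 1.5 times that reported.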
